A study of Capra hircus with 13 samples.

Results

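The genes described here are those that write, maintain and remove DNA methylation. Their names were given as a list and not picked by their values: the DNA methyltransferase genes DNMT1, DNMT3A and DNMT3B, the UHRF genes UHRF1 and UHRF2, the TET genes TET1, TET2 and TET3, and DPPA3. Of these 9 genes, 8 were listed in all 5 deposited expression tables, which together list 27161 gene names, 18138 of them in every table. DPPA3, whose protein shields part of the genome from loss of methylation in the zygote, is named only and was not analysed here. Its name was not among those used from any of the 5 tables, which says nothing about its expression.

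The samples were goat (Capra hircus) oocytes and embryos made by in vitro fertilization (IVF), profiled by Smart-seq2, a method that copies polyadenylated RNA from very small inputs. The untreated groups were oocytes at metaphase of the second meiotic division (MII), 4-cell embryos and 8-cell embryos, with 3 libraries each and no genetic change or agent given in the labels. The injected groups were 8-cell embryos that received either a universal negative control siRNA (NC) or siRNAs against YTHDF2, which codes for a reader of methylated adenosine in mRNA, with 2 libraries each. The labels title the control libraries WT and do not mention an injection. That they are NC-injected embryos is taken from the study's methods, which name NC as the control of the knockdown. Injection into the cytoplasm was at 8 h after IVF and collection at 72 h, and each injected library was a pool of embryos, so an siRNA effect is averaged over embryos that may have taken up different amounts. The age of the animals was not given in the sources used here, and nothing in the labels says that the libraries of a group came from separate animals or cultures, so p-values measure the spread between these libraries, which may be partly technical.

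DNA methylation is copied after replication by DNMT1, which UHRF1 brings to newly made DNA, while DNMT3A and DNMT3B place methyl groups on DNA that had none. The TET enzymes oxidize methylcytosine, which is one route to its removal, and TET3 is known as the oocyte-supplied member that acts on the zygote's paternal genome. In mammals the early embryo loses much of the methylation inherited from sperm and egg, and the oocyte's own mRNAs are broken down as the embryo's genome is switched on.

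The knockdown used a mixture of 2 siRNAs, and the antisense strands are shown because they define the treatment behind the knockdown comparison. They are written 5′ to 3′ with the seed, bases 2 to 8 of the strand, in capitals.
s28148 antisense: uUGCUAGCaauaucagcccaa
s28147 antisense: uGGUCUAUaguauucaugcca
YTHDF2 was at 112 and 159 FPKM (fragments mapped to a gene, divided by the length of its model and by the mapped fragments of the library) in the NC libraries and at 8.07 and 4.47 FPKM in the YTHDF2 siRNA libraries. It fell by 4.25 on the log2 scale (adjusted p = 0.000367 by limma), so the labels and the targeted gene match.

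The untreated libraries held 26853876 to 42495116 fragments, recovered from the FPKM steps, and the depth of the injected libraries is unknown. Replicates correlated across genes at 0.946 to 0.977 on the log2 scale, apart from 8-cell replicate 1, which stood at 0.856 and 0.902 with the other 8-cell libraries, whose own value was 0.965. The MII table lists other gene names than the embryo tables, and the genes shared by all stages took 64.8% to 66.2% of the fragments of an MII library against 94.3% to 96.8% of an embryo library. The median of all 9090 genes tested was 0.29 (4-cell) and 0.37 (8-cell) above MII on the log2 scale, and 0.07 between the embryo stages. Stage and table cannot be told apart for the comparisons with MII. The untreated libraries came from more than 1 earlier study, so stage and study may not be separable in the stage comparisons. Oocyte markers were present in every group, with 13 of 14 listed and summed levels of 7227 to 12472 FPKM in untreated and 3158 to 8012 FPKM in injected libraries. Cumulus and granulosa markers summed to 43.5 to 142 FPKM over the 13 libraries. STAR (17.6 to 95.6 FPKM), HAS2 (8.15 to 29.4 FPKM), VCAN (8.44 to 22.4 FPKM) and TNFAIP6 (0.782 to 19.8 FPKM) made up most of these sums, whereas AMH was at 0 in all untreated libraries, and FSHR and INHA were at 0 in all injected libraries. Sperm markers summed to at most 1.06 FPKM in untreated libraries and to 5.13 to 27.1 FPKM in injected libraries.

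UHRF2 and DNMT1 were the most abundant transcripts of the set in every untreated library but 8-cell replicate 1, where UHRF1 exceeded both. FPKM is a level per length of gene model, so genes can be compared with each other on it as far as the models match the RNA copied. The models ran from 3641 bases (UHRF2) to 12301 bases (TET1), and coverage along them was not examined. In MII oocytes UHRF2 stood at 439 ± 37.3 FPKM (SD, n = 3) and DNMT1 at 396 ± 48.0 FPKM (SD, n = 3), and their libraries overlapped. DNMT1 was at or above 99.5% to 99.7% and UHRF2 at or above 99.6% to 99.7% of the genes listed in every table in the MII libraries. UHRF1 followed at 59.8 ± 10.7 FPKM (SD, n = 3) and DNMT3A at 11.3 ± 0.472 FPKM (SD, n = 3), and neither overlapped its neighbours in this order. TET3 at 5.43 ± 0.784 FPKM and DNMT3B at 4.75 ± 1.14 FPKM (SD, n = 3 each) overlapped each other. TET2 at 2.60 ± 0.356 FPKM and TET1 at 1.62 ± 0.202 FPKM (SD, n = 3 each) were the lowest and did not overlap each other or the genes above them.

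**Figure D1:**
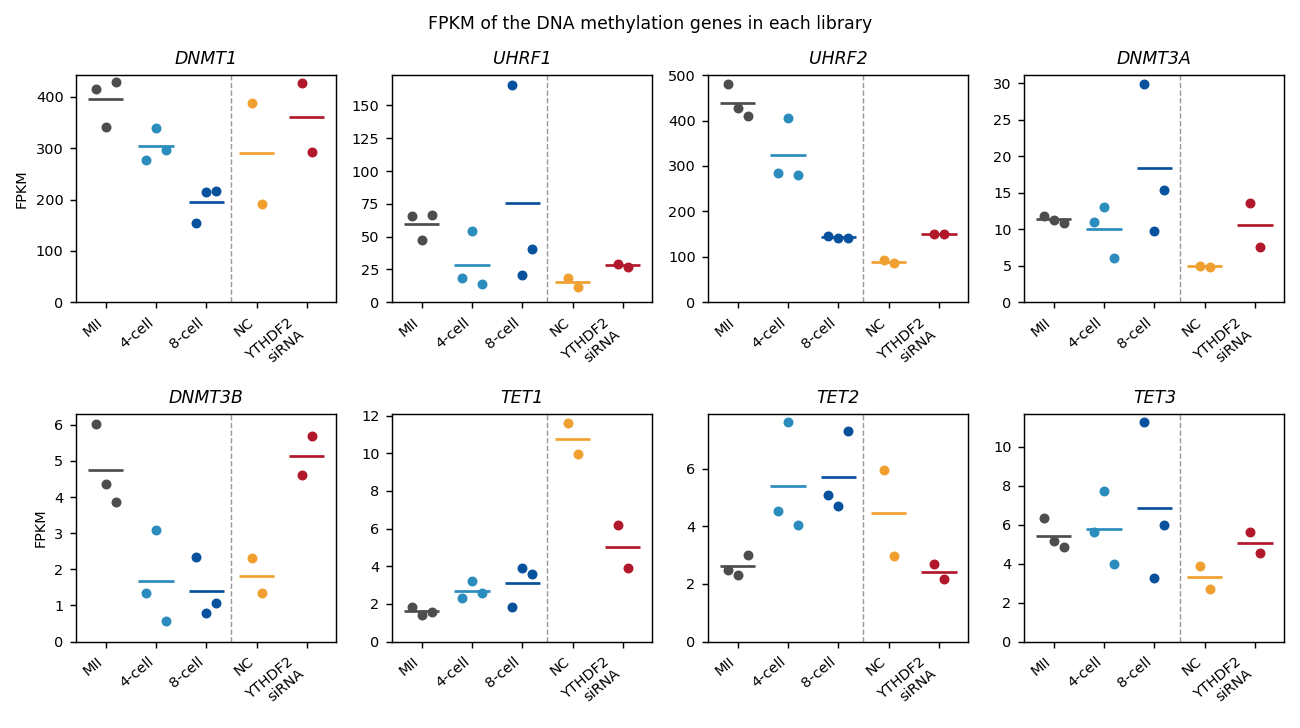
Level of each of the 8 listed genes in FPKM (y axis, linear and from 0, a scale of its own for each gene) in the 13 libraries by group (x axis). Points are libraries, bars are group means, and the dashed line separates the untreated groups (left) from the siRNA-injected groups (right), which were normalized apart. UHRF2 lay at 141 to 146 FPKM in the 8-cell libraries against 410.2 to 481 FPKM in the MII libraries, while UHRF1 in 8-cell embryos ranged from 20.9 to 166 FPKM.

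Of the maintenance genes, UHRF2 and DNMT1 fell from the oocyte to the 8-cell embryo, and UHRF1 varied too much between libraries of a stage to be placed. UHRF2, a paralog of UHRF1 that binds hydroxymethylated and hemimethylated DNA, was at 481, 427 and 410.2 FPKM in the MII libraries. It was at 284, 405 and 281 FPKM in the 4-cell libraries and at 146, 141 and 141 FPKM in the 8-cell libraries. The 8-cell libraries lay below all libraries of both earlier stages and close together (SD 2.63 FPKM, n = 3), and the 4-cell libraries lay below the MII libraries. UHRF2 fell by 1.61 on the log2 scale from MII to 8-cell (SE 0.17, adjusted p = 0.000173) and by 1.15 from 4-cell to 8-cell (SE 0.17, adjusted p = 0.00734). These comparisons share the 8-cell libraries. Between MII and 4-cell the difference in UHRF2 was -0.46 (SE 0.17, adjusted p = 0.0682). In bulk embryos, fewer cells of a type and less RNA per cell cannot be told apart. Smart-seq2 copies polyadenylated RNA, so less of an mRNA and a shorter poly(A) tail cannot be told apart either. A lower FPKM is therefore a lower share of the library's fragments and not a count of molecules lost.

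DNMT1, the maintenance methyltransferase, showed the same order of stages. It was at 416, 341 and 430 FPKM (MII), at 277, 339 and 298 FPKM (4-cell), and at 155, 216 and 217 FPKM (8-cell). No library of a stage overlapped those of another stage, the closest being MII replicate 2 and 4-cell replicate 2. DNMT1 fell by 1.02 on the log2 scale from MII to 8-cell (SE 0.18, adjusted p = 0.00218). The steps on the way were -0.37 from MII to 4-cell (SE 0.18, adjusted p = 0.148) and -0.65 from 4-cell to 8-cell (SE 0.18, adjusted p = 0.0592), and neither passed the threshold of 0.05. The tables hold 1 value a gene, so the oocyte and somatic transcripts of DNMT1 were not separated.

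UHRF1, the partner of DNMT1 that recognizes hemimethylated DNA, was at 65.7, 47.5 and 66.2 FPKM in MII oocytes. It was at 18.2, 54.3 and 13.8 FPKM in 4-cell embryos and at 166, 20.9 and 40.4 FPKM in 8-cell embryos. The 3 stages overlapped, and the 8-cell value rested on replicate 1, in which UHRF1 held 21161 fragments. Its differences were -1.26 from MII to 4-cell (SE 0.70, adjusted p = 0.202) and 1.09 from 4-cell to 8-cell (SE 0.70, adjusted p = 0.369). Without 8-cell replicate 1 the latter was 0.27. UHRF2 made up 88.0% ± 1.95 of the summed FPKM of the UHRF genes in MII oocytes and 92.5% ± 3.80 in 4-cell embryos (SD, n = 3 each). In the 8-cell libraries its share was 46.8%, 87.1% and 77.8%, so replicate 1 was the only untreated library in which UHRF1 exceeded UHRF2.

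DNMT3B fell from the oocyte to both embryo stages, while DNMT3A did not pass the test in any comparison. DNMT3B, a de novo methyltransferase, was at 6.03, 4.35 and 3.86 FPKM in the MII libraries. It was at 1.35, 3.09 and 0.560 FPKM in the 4-cell libraries and at 2.33, 0.786 and 1.08 FPKM in the 8-cell libraries. All 6 embryo libraries lay below all 3 MII libraries. On the log2 scale DNMT3B fell by 1.20 from MII to 4-cell (SE 0.39, adjusted p = 0.0404) and by 1.30 from MII to 8-cell (SE 0.39, adjusted p = 0.0255). Both comparisons share the MII libraries. The log2 scale with 1 FPKM added understates the change of so low a gene: the group means were 4.75, 1.67 and 1.40 FPKM, a ratio to MII of 0.351 (4-cell) and 0.295 (8-cell). The call at the 4-cell stage was lost in 9 of 18 alternatives, with adjusted p of 0.0712 to 0.140 when any one MII library was left out, 0.104 and 0.136 without 4-cell replicate 1 or replicate 3, and 0.0521 with the replicate number as a block. The call at the 8-cell stage was lost in 5 of 18, with an adjusted p of 0.0957 without MII replicate 1, 0.0517 without MII replicate 2, and 0.0717 and 0.0782 without 8-cell replicate 2 or replicate 3. The 4-cell values rested on 154, 330 and 64 fragments, against 610 to 821 fragments in the MII libraries.

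DNMT3A, the other de novo methyltransferase, was at 11.8, 11.3 and 10.9 FPKM in MII oocytes, at 11.0, 12.98 and 6.10 FPKM in 4-cell embryos, and at 29.9, 9.79 and 15.4 FPKM in 8-cell embryos. The stages overlapped, and the spread grew from an SD of 0.472 FPKM in MII to 10.4 FPKM in 8-cell embryos, where replicate 1 was again the highest. The difference between 8-cell and MII was 0.52 (SE 0.38, adjusted p = 0.318), and 0.11 without that library. DNMT3A exceeded DNMT3B by 1.96 to 2.81 times in MII libraries, by 4.20 to 10.9 times in 4-cell libraries and by 12.5 to 14.3 times in 8-cell libraries. This ratio is taken within a library and does not depend on its scaling, and in the 8-cell stage it was alike in replicate 1 and in the others.

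Within the DNMT family DNMT1 supplied 96.1% ± 0.562 of the summed FPKM in MII oocytes and 96.3% ± 1.28 in 4-cell embryos (SD, n = 3 each). In 8-cell embryos the share was 82.8%, 95.3% and 92.9%. All 3 of these values lay below the lowest of the 4-cell stage, which was 95.5%, and the lowest was that of 8-cell replicate 1. DNMT3L, a cofactor of DNMT3A that has no catalytic activity of its own, was listed at 0 in the 3 MII libraries.

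**Figure D2:**
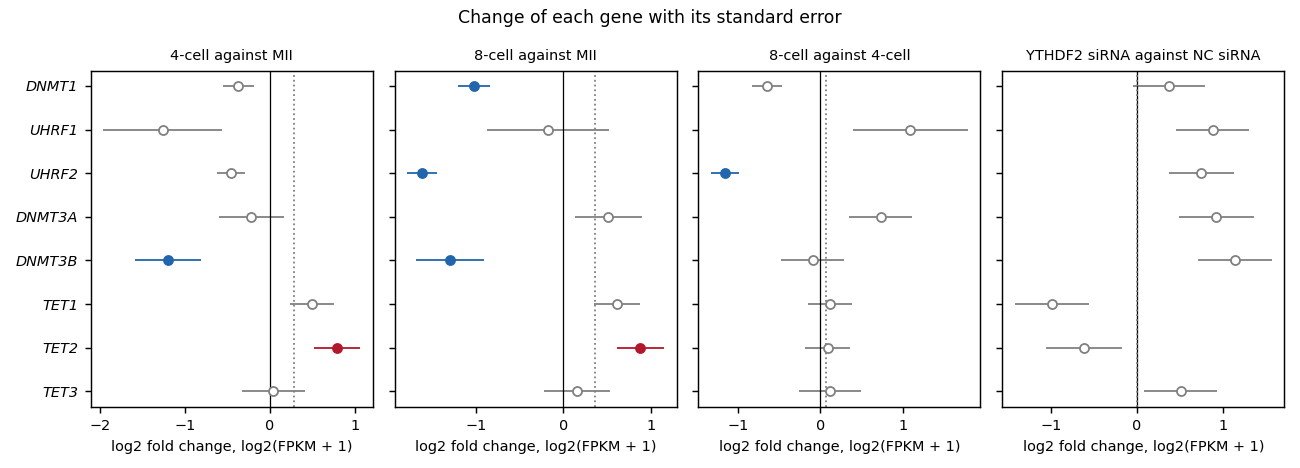
Log2 fold change of each gene (x axis, on log2(FPKM + 1)) with its standard error (bars) in the 4 comparisons; filled blue points were called lower and filled red points higher at an adjusted p below 0.05, and open points were not called. The dotted line is the median of all genes tested. UHRF2 lay at -1.61 and DNMT1 at -1.02 in 8-cell embryos against MII oocytes, whereas none of the 8 genes was called in the knockdown comparison.

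Of the TET genes, TET2 was higher in embryos than in oocytes on the deposited scale, and TET1 and TET3 did not pass the test. TET2 was at 2.49, 2.32 and 3.00 FPKM in MII libraries, at 4.54, 7.63 and 4.04 FPKM in 4-cell libraries, and at 5.08, 4.72 and 7.30 FPKM in 8-cell libraries. All 6 embryo libraries were above all 3 MII libraries, and the embryo stages overlapped. TET2 rose by 0.79 from MII to 4-cell (SE 0.27), with an adjusted p that lay at the threshold of 0.05 itself, and by 0.88 from MII to 8-cell (SE 0.27, adjusted p = 0.0287). Both calls were lost under each of the 4 other scalings of the libraries, with 0.38 to 0.60 (4-cell, adjusted p 0.163 to 0.345) and 0.48 to 0.58 (8-cell, adjusted p 0.131 to 0.214). Of the 5 scalings, the calls held on the deposited one alone, on which the median gene was also higher in embryos.

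TET1 was at 1.83, 1.43 and 1.58 FPKM in MII libraries, at 2.30, 3.21 and 2.58 FPKM in 4-cell libraries, and at 1.85, 3.88 and 3.58 FPKM in 8-cell libraries. The embryo libraries were all above the MII libraries, with 8-cell replicate 1 only just so. The difference between 8-cell and MII was 0.61 (SE 0.26, adjusted p = 0.0956), and it was 0.86 (adjusted p = 0.0137) without 8-cell replicate 1. TET3 was at 6.31, 5.14 and 4.83 FPKM in MII libraries, at 5.59, 7.73 and 3.96 FPKM in 4-cell libraries, and at 11.3, 3.26 and 5.97 FPKM in 8-cell libraries. Its stages overlapped, with differences from MII of 0.04 (4-cell, SE 0.38, adjusted p = 0.948) and 0.16 (8-cell, SE 0.38, adjusted p = 0.771) whose sign turned under all 4 other scalings.

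The make-up of the TET family, which does not depend on the scaling of a library, differed between oocytes and 4-cell embryos, with less of TET3 and more of TET2 in the embryos. TET3 supplied 59.4%, 57.8% and 51.3% of the summed TET FPKM in MII libraries and 45.0%, 41.6% and 37.4% in 4-cell libraries. TET2 supplied 23.4%, 26.1% and 31.9% in MII libraries and 36.5%, 41.1% and 38.2% in 4-cell libraries. Neither pair of groups overlapped, and the shares were described without a test. In 8-cell embryos TET3 supplied 61.9%, 27.5% and 35.4%, so 8-cell replicate 1 had TET3 as the largest share, as the MII libraries had, and the other 8-cell libraries had TET2.

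**Figure D3:**
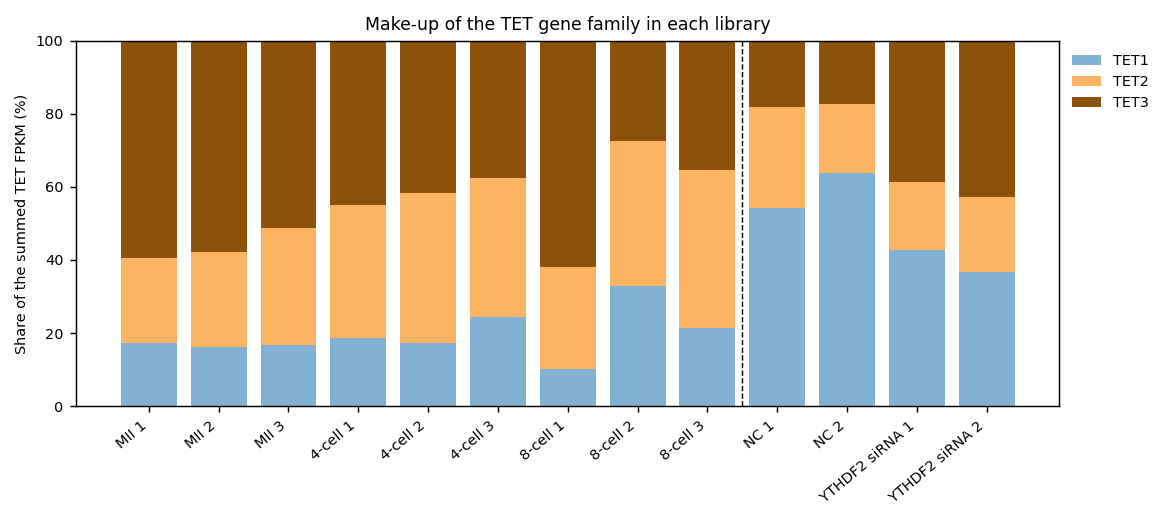
Share of TET1, TET2 and TET3 in the summed FPKM of the TET genes (y axis, percent) in each of the 13 libraries (x axis); the dashed line separates untreated from injected libraries. TET3 took 51.3% to 59.4% in MII oocytes and 17.3% to 18.1% in the NC-injected embryos, where TET1 took 54.1% and 63.7%.

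Counted over the set, 1 of 8 genes was called higher (TET2) and 1 of 8 lower (DNMT3B) in 4-cell embryos against MII oocytes, where 24.7% of all 9090 genes tested were called higher and 6.42% lower. In 8-cell embryos against MII oocytes, 1 of 8 was called higher (TET2) and 3 of 8 lower (UHRF2, DNMT1 and DNMT3B), against 27.3% and 10% of all genes. Between 8-cell and 4-cell embryos 0 of 8 were called higher and 1 of 8 lower (UHRF2), against 3.06% and 5.24% of all genes, and at an unadjusted p below 0.05 there were 0 of 8 higher and 2 of 8 lower (UHRF2 and DNMT1), against 10.8% and 13.5%. The median difference of the 8 genes was -0.30 (4-cell) and -0.01 (8-cell) against MII, where the median of all genes was 0.29 and 0.37. Calls in the set rested on few libraries at the 4-cell stage: the count of 2 became 0 without MII replicate 1, MII replicate 2, MII replicate 3, 4-cell replicate 1, 4-cell replicate 3 or 8-cell replicate 3, each left out alone, and 1 without 8-cell replicate 2. The count of 4 against MII at the 8-cell stage became 2 without MII replicate 1, MII replicate 2 or 8-cell replicate 3.

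Setting the whole libraries on another scale made the falls of UHRF2 and DNMT1 against MII larger and left their calls at the 8-cell stage in place. The 4 other scalings called 15.1% to 19.4% of all genes lower at that stage, against 10% as deposited, so they favour such calls. Relative to the median of all genes, UHRF2 stood at -1.98 and DNMT1 at -1.39 in 8-cell embryos against MII oocytes. With the fragments on shared genes as the library total, UHRF2 was at -2.15 and DNMT1 at -1.55 (adjusted p = 4.1e-05 and 0.000346). On that scale both also passed the threshold in 4-cell embryos. UHRF2 was at -1.01 (adjusted p = 0.00344) and DNMT1 at -0.93 (adjusted p = 0.00778) there. The split of calls over all genes moved with the scale as well: 79.4% of the calls at the 4-cell stage were higher as deposited and 39% on shared fragments, and 73.2% and 40.5% at the 8-cell stage.

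**Figure D4:**
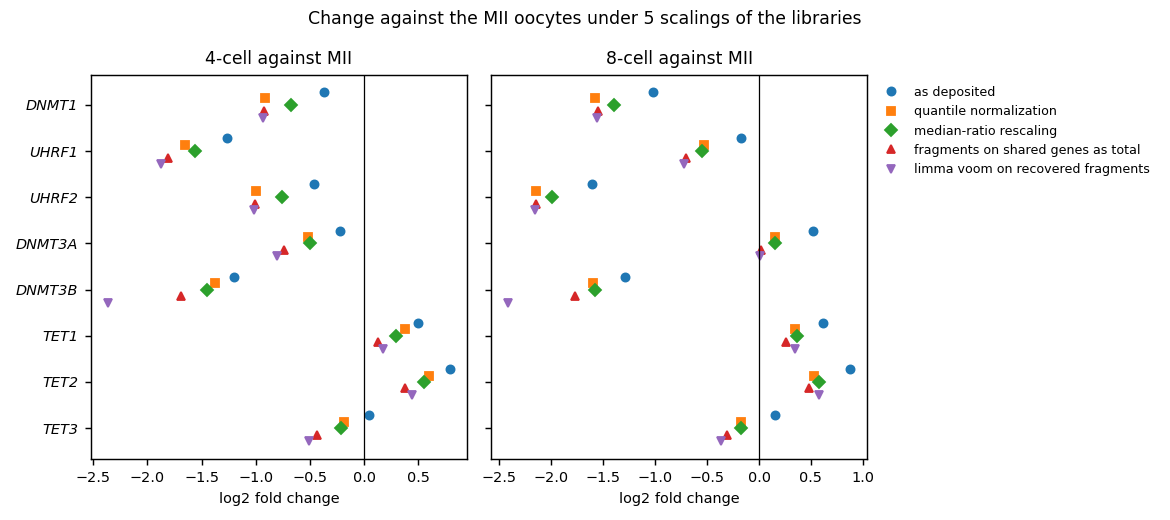
Log2 fold change against MII oocytes (x axis) of each gene under the deposited FPKM scale and 4 other scalings of the libraries (symbols), for 4-cell (left) and 8-cell embryos (right). UHRF2 in 8-cell embryos ranged from -2.15 to -1.61, while TET3 lay above 0 as deposited and below 0 under the other scalings.

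In 4-cell replicate 2 all 8 genes were at their highest among the 4-cell libraries, and so were 52.9% of all 9090 genes tested. In 8-cell replicate 1, 5 of 8 genes (UHRF1, UHRF2, DNMT3A, DNMT3B and TET3) were the highest of the stage and 2 of 8 (DNMT1 and TET1) the lowest, against 44.9% and 35.7% of all genes. The embryonic transcription markers, which are early targets of genome activation such as LEUTX and DUXA, summed to 334 FPKM in 8-cell replicate 1, to 1380.0 FPKM in replicate 2 and to 525 FPKM in replicate 3. They summed to 10.4 to 14.2 FPKM in MII and 54.3 to 127 FPKM in 4-cell libraries. Cumulus and granulosa markers were also highest in 8-cell replicate 1, at 142 FPKM against 95.6 and 104 FPKM, with STAR at 95.6 FPKM against 42.4 and 38.8 FPKM. TNFAIP6 was lowest in that library (4.47 FPKM against 19.5 and 19.8 FPKM), and HAS2 lay between the others (24.4 FPKM against 20.6 and 29.4 FPKM). The part of these markers in the values of the methylation genes was not tested.

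Across the 9 untreated libraries, DNMT1 and UHRF2 varied together (Pearson r = 0.927 on the log2 scale, and 0.946 without 8-cell replicate 1). DNMT3A varied with TET3 (r = 0.861, and 0.670 without that library) and with UHRF1 (r = 0.832, and 0.663). The points share stage, table and depth, so these are descriptions. The genes most like UHRF2 in pattern, among 3672 genes of at least 10 FPKM on average, were KDM1A and WDR47 (r = 0.978 each). KDM1A, a histone demethylase, stood at 89.0, 67.4 and 27.3 FPKM as means of the 3 stages. The most like DNMT1 were MRPS16 and UTP20 (r = 0.968 and 0.965), the most like UHRF1 were TMEM150A and TRIP13 (r = 0.991 and 0.988), and the most like DNMT3A were RNF10 and B3GALNT2 (r = 0.963 and 0.960). DNMT3B was closest to JAK1 and SIN3A (r = 0.964 and 0.951), TET1 to MAK16 and CLOCK (r = 0.969 and 0.948), TET2 to DENND5A and MAP4K4 (r = 0.964 and 0.958), and TET3 to TSN and ESYT1 (r = 0.970 and 0.935).

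The knockdown comparison asks what happens to these mRNAs in 8-cell embryos that lack most of their YTHDF2 mRNA. By limma with the adjusted threshold, 0 of 8 genes were called, where 2.06% of the 11004 genes tested were called higher and 5.92% lower. At an unadjusted p below 0.05 there were 2 of 8, DNMT3B higher and TET1 lower, against 11.9% and 17.6% of all genes. A rule with the thresholds of the study, an unadjusted p below 0.05 and a change of more than 2-fold, was applied here to limma's p and to the log2(FPKM + 1) change, and it called 1 of 8 (DNMT3B, higher), against 9.48% of all genes higher and 15.3% lower. Set side by side, 5 of 8 genes were higher in both YTHDF2 siRNA libraries than in both NC libraries and 2 of 8 lower in both, against 30.3% and 30.7% of all genes. The SE was 0.38 to 0.44 on the log2 scale for each of the 8 genes.

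Among the maintenance genes, both UHRF genes lay higher in the knockdown libraries without passing the test, and DNMT1 overlapped between the groups. UHRF2 was at 92.9 and 85.5 FPKM in the NC libraries and at 150.1 and 151 FPKM in the YTHDF2 siRNA libraries. The groups did not overlap, and the difference was 0.75 (SE 0.38, adjusted p = 0.201). UHRF1 was at 18.8 and 11.7 FPKM (NC) and at 29.5 and 27.1 FPKM (YTHDF2 siRNA), also without overlap, with a difference of 0.88 (SE 0.42, adjusted p = 0.178). The share of UHRF2 in the summed FPKM of the pair was 83.2% and 88.0% in NC and 83.6% and 84.8% in YTHDF2 siRNA libraries, which overlap. DNMT1 was at 388 and 192 FPKM (NC) and at 426 and 293 FPKM (YTHDF2 siRNA), so that the NC libraries alone spanned more than the difference of 0.37 (SE 0.42, adjusted p = 0.572), and without NC replicate 2 it was -0.13.

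DNMT3B was at 2.30 and 1.34 FPKM in the NC libraries and at 4.61 and 5.69 FPKM in the YTHDF2 siRNA libraries. The difference was 1.14 (SE 0.43), the largest rise in the set, with an unadjusted p of 0.0179 and an adjusted p of 0.104. DNMT3A was at 4.95 and 4.86 FPKM (NC) and at 13.6 and 7.63 FPKM (YTHDF2 siRNA), with a difference of 0.93 (SE 0.44, adjusted p = 0.175). The NC libraries nearly coincided and both knockdown libraries were higher, but these were 5.97 FPKM apart. DNMT3A, UHRF1 and UHRF2 are among the genes that the study chose to show from these same libraries, so their direction here is not independent evidence. DNMT3L was at 3.03 and 0.20 FPKM (NC) and at 0.20 and 0.110 FPKM (YTHDF2 siRNA).

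The TET genes did not move as a group. TET1 was at 11.6 and 9.96 FPKM in the NC libraries and at 6.18 and 3.91 FPKM in the YTHDF2 siRNA libraries. The difference was -0.98 (SE 0.43), with an unadjusted p of 0.0378 and an adjusted p of 0.147, and the groups did not overlap. TET2 was at 5.95 and 2.96 FPKM (NC) and at 2.69 and 2.17 FPKM (YTHDF2 siRNA), a difference of -0.62 (SE 0.44, adjusted p = 0.364) that leaned on NC replicate 1. TET3 was at 3.87 and 2.71 FPKM (NC) and at 5.62 and 4.54 FPKM (YTHDF2 siRNA), a difference of 0.51 (SE 0.43, adjusted p = 0.434). With TET1 lower and TET3 higher, the share of TET3 in the family was 18.1% and 17.3% in NC libraries and 38.8% and 42.7% in YTHDF2 siRNA libraries, and that of TET1 was 54.1% and 63.7% against 42.7% and 36.8%. Neither share overlapped between the groups, and the shares were not tested.

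Other markers moved in the same comparison. The oocyte markers summed to 4968 and 3158 FPKM in the NC libraries and to 6599 and 8012 FPKM in the YTHDF2 siRNA libraries, and 10 of the 13 listed were at 1 FPKM or more on average in NC against 13 of 13 in YTHDF2 siRNA embryos. Cumulus and granulosa markers summed to 50.8 and 43.5 FPKM in NC and to 90.7 and 81.4 FPKM in YTHDF2 siRNA libraries. HAS2 was at 10.2 and 10.7 FPKM in NC and at 20.6 and 23.3 FPKM in YTHDF2 siRNA libraries, STAR at 20.3 and 17.6 FPKM against 28.7 and 33.2 FPKM, TNFAIP6 at 5.21 and 6.06 FPKM against 18.3 and 9.34 FPKM, and VCAN at 13.8 and 8.44 FPKM against 22.4 and 14.97 FPKM, with no overlap between the groups for any of these 4. FSHR and INHA were at 0 in both groups. Embryonic transcription markers summed to 3153 and 3905 FPKM in NC and to 3480 and 3123 FPKM in YTHDF2 siRNA libraries and overlapped. NC replicate 1 was above NC replicate 2 for all 8 methylation genes and for 62.9% of all genes. The part of any of these in the values of the set was not tested.

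Untreated and NC-injected 8-cell embryos can be set side by side only as a description. Injection, pooling, library set, normalization and developmental progress cannot be told apart between them. Embryonic transcription markers summed to 334 to 1380 FPKM in untreated and to 3153 and 3905 FPKM in NC libraries. Oocyte markers summed to 8971 to 10420 FPKM in untreated and to 3158 and 4968 FPKM in NC libraries. The time of collection of the untreated embryos is not given in the labels. DNMT1 spanned 155 to 217 FPKM in untreated and 192 to 388 FPKM in NC libraries, which overlap. UHRF2 was lower in NC embryos (85.5 and 92.9 FPKM against 141 to 146 FPKM), and so was DNMT3A (4.86 and 4.95 FPKM against 9.79 to 29.9 FPKM). UHRF1 was lower in them as well (11.7 and 18.8 FPKM against 20.9 to 166 FPKM), while DNMT3B, TET2 and TET3 overlapped. TET1 was higher in NC embryos (9.96 and 11.6 FPKM against 1.85 to 3.88 FPKM). YTHDF2 itself was at 10.8 to 16.7 FPKM in untreated and at 112 and 159 FPKM in NC embryos. The YTHDF2 siRNA embryos had UHRF2 at 150.1 and 151 FPKM, next to the untreated level, and TET1 at 3.91 and 6.18 FPKM, between the untreated and the NC levels.

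Genes that work with these enzymes moved in both directions between stages. Of 69 genes in 6 lists, 49 were tested over the stages. In 4-cell embryos against MII 7 were called higher and 5 lower, where 24.7% and 6.42% of all genes were. In 8-cell embryos against MII 11 were called higher and 6 lower, beside 27.3% and 10% of all genes, and between the embryo stages 1 and 2, beside 3.06% and 5.24%. After the data had been seen, the named genes of these lists were run under the alternatives as well. Of those called against MII, all 3 lower calls at each embryo stage held under the 4 other scalings of the libraries. These scalings favour lower calls. Of all genes they called 10.4% to 14.8% lower at the 4-cell stage, and 15.1% to 19.4% at the 8-cell stage. Holding under them is therefore no support for a lower call. Of the higher calls, 2 of 6 (OGT and MAT2B) held under all 4 scalings at the 4-cell stage and 3 of 7 (APEX1, MAT2B and EBF1) at the 8-cell stage. Among the partners of maintenance, 1 of 7 was called higher at the 4-cell stage and 1 of 7 lower at the 8-cell stage. HELLS, a chromatin remodeller needed for methylation, fell by 1.53 from MII to 8-cell (SE 0.23, adjusted p = 0.00095) and by 1.01 from 4-cell to 8-cell (adjusted p = 0.0282). The first of these calls held in 18 of 18 alternatives, and the second in 9 of 18 and under 3 of 4 other scalings. It was at 16.3, 11.1 and 5.04 FPKM as means of MII, 4-cell and 8-cell libraries. CDCA7, its activator, rose by 0.78 from MII to 4-cell (SE 0.20, adjusted p = 0.0166), a call lost under all 4 other scalings (0.23 to 0.48).

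Among the de novo and imprint partners, 5 of 10 were tested, and TRIM28, the corepressor that keeps imprints methylated, fell by 1.62 in 4-cell embryos (adjusted p = 0.029) and by 2.13 in 8-cell embryos (adjusted p = 0.00711) against MII, with an SE of 0.48, and these calls held in 12 of 18 and 18 of 18 alternatives. NSD1, which writes histone H3 lysine 36 methylation, rose by 0.79 from MII to 8-cell (SE 0.27, adjusted p = 0.0424), a call that held in 5 of 18 alternatives and under none of the other scalings. TRDMT1, a transfer RNA methyltransferase once named DNMT2, fell by 0.97 from 4-cell to 8-cell (SE 0.22, adjusted p = 0.0268), a call that held under 2 of 4 other scalings and in 8 of 18 alternatives. Of 5 methyl-CpG readers tested, ZBTB33 rose by 0.56 from MII to 4-cell (SE 0.18, adjusted p = 0.0453), and MBD2 by 0.76 from MII to 8-cell (SE 0.26, adjusted p = 0.0464). Both were lost under all 4 other scalings, ZBTB33 with 0.010 to 0.26, and they held in 4 of 18 and 2 of 18 alternatives.

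Base excision repair, which replaces oxidized methylcytosine, had 1 of 11 genes called higher and 4 of 11 lower in 4-cell embryos against MII, and 2 of 11 and 4 of 11 in 8-cell embryos, beside the shares of all genes given above (24.7% and 6.42%, 27.3% and 10%). NTHL1, a DNA glycosylase, fell by 1.53 in 4-cell embryos (adjusted p = 0.00418) and by 1.78 in 8-cell embryos (adjusted p = 0.00144), with an SE of 0.29. LIG3, a ligase of this route, fell by 1.49 at the 4-cell stage (SE 0.48, adjusted p = 0.0407), a call that held in 11 of 18 alternatives. APEX1, the endonuclease of the route, rose by 2.60 at the 8-cell stage (SE 0.48, adjusted p = 0.0026), from a mean of 12.3 FPKM in MII to 80.3 FPKM in 8-cell libraries. TDG, a DNA glycosylase also on this list, fell under the filter and was not tested. It was at 0 to 0.339 FPKM in untreated and 0.13 to 0.47 FPKM in injected libraries.

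In the methyl donor cycle 2 of 13 genes were called higher in 4-cell embryos and 3 of 13 in 8-cell embryos against MII, and among the cofactors and partners of the TET enzymes 2 of 8 and 4 of 8, on a scale on which 24.7% and 27.3% of all genes were. None of either list was called lower, beside 6.42% and 10% of all genes. MAT2B and MAT2A, subunits of the enzyme that makes S-adenosylmethionine, rose in both embryo stages on the deposited scale. For MAT2B the rise was 1.46 in 4-cell embryos (adjusted p = 0.00171) and 1.72 in 8-cell embryos (adjusted p = 0.00055), and for MAT2A it was 1.03 (adjusted p = 0.0427) and 1.25 (adjusted p = 0.0163). The calls of MAT2B held in 18 of 18 alternatives, and those of MAT2A were lost under all 4 other scalings at the 4-cell stage (0.53 to 0.76) and under 3 of 4 at the 8-cell stage (0.76 to 0.89). OGT, which glycosylates TET complexes, rose by 1.56 at the 4-cell stage (SE 0.22, adjusted p = 0.0010), at 5.78, 19.2 and 10.5 FPKM as means of MII, 4-cell and 8-cell libraries. IDH1, a source of the TET cosubstrate 2-oxoglutarate, rose by 0.71 at the 4-cell stage (SE 0.18, adjusted p = 0.0174), a call lost under all 4 other scalings (0.16 to 0.41). SIRT1, a deacetylase, rose by 1.65 from MII to 8-cell (SE 0.54, adjusted p = 0.0375), with 13.3 FPKM in 8-cell replicate 2 against 1.76 and 2.28 FPKM in the others, and this call too was lost under the 4 other scalings (1.40 to 2.07). EBF1, a factor that binds TET2, rose by 1.29 from MII to 8-cell (SE 0.16, adjusted p = 0.000423) and by 0.97 from 4-cell to 8-cell (adjusted p = 0.0107), and these calls held in 18 of 18 and 16 of 18 alternatives.

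In the knockdown comparison 0 of 54 listed genes were called higher and 2 of 54 lower, where 2.06% and 5.92% of all genes were. IDH3B, a subunit of the NAD-dependent isocitrate dehydrogenase, was at 12.4 and 11.5 FPKM in the NC libraries and at 0.830 and 2.12 FPKM in the YTHDF2 siRNA libraries, and fell by 2.44 (SE 0.44, adjusted p = 0.00787). SHMT2, the mitochondrial serine hydroxymethyltransferase, was at 11.8 and 11.2 FPKM (NC) and at 3.65 and 2.09 FPKM (YTHDF2 siRNA), and fell by 1.72 (SE 0.43, adjusted p = 0.0297). The groups did not overlap for either gene, and the calls held in 9 of 10 (IDH3B) and 5 of 10 (SHMT2) alternatives. The median difference over the 54 genes was 0.16, beside 0.01 over all genes tested and 0.63 over the 8 methylation genes.

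**Figure D5:**
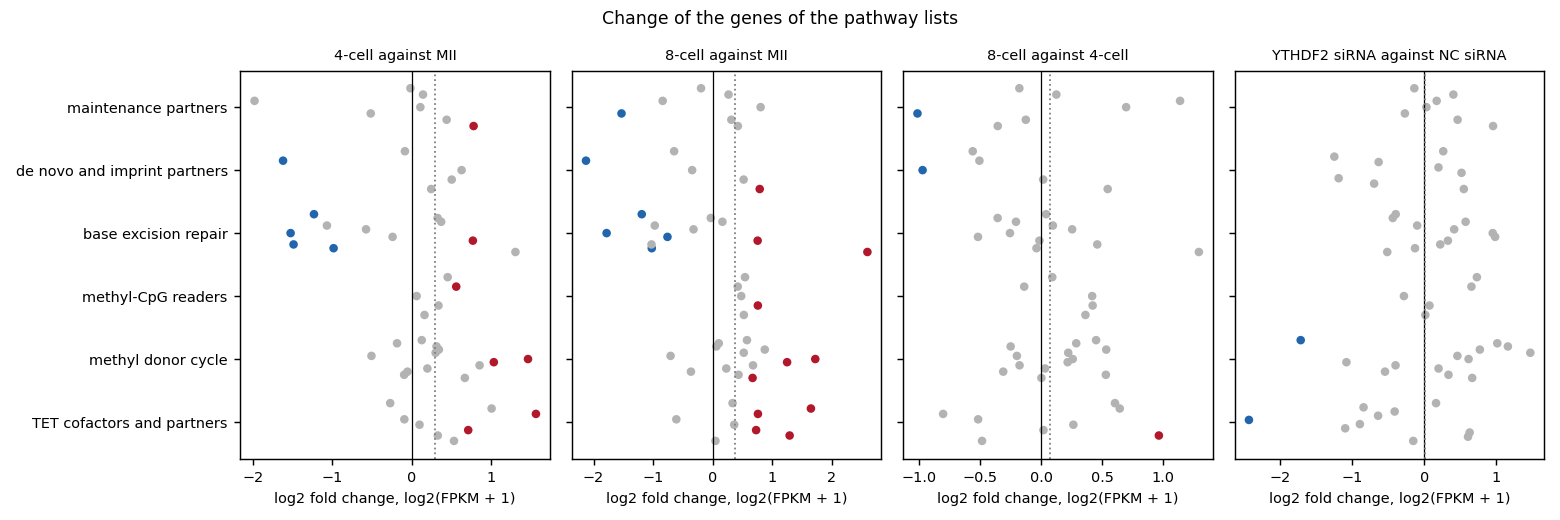
Log2 fold change (x axis, on log2(FPKM + 1)) of each tested gene of the 6 pathway lists (y axis) in the 4 comparisons; red points were called higher and blue points lower at an adjusted p below 0.05, grey points were not called, and the dotted line is the median of all genes tested. In the knockdown comparison 2 blue points, IDH3B at -2.44 and SHMT2 at -1.72, are the calls.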

How the data were processed

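Reads had been mapped by the authors with HISAT2 on ARS1, a goat assembly, with multi-mapping reads dropped and genes counted by HTSeq, and the deposited unit is FPKM, in 5 tables, 1 for each group. The untreated libraries came from more than 1 earlier study of the same group. Which stage came from which study is not given in the sources used here. The tables of untreated stages were not rounded and those of injected embryos were rounded to hundredths. Names listed more than once in a table were left out. The untreated libraries (9) and the injected libraries (4) were fitted apart with limma 3.58.1 in R 4.3.3, with a trended prior, on log2(FPKM + 1), leaving out genes whose mean was under 1 FPKM. A gene was called at a Benjamini-Hochberg adjusted p below 0.05 over all genes of the comparison, and fold changes are on that log2 scale. Whole fragments were recovered from the FPKM steps of all 17918 untreated genes above 0 (99.6% of values within 0.001 of a whole number) and were used for depth, as an alternative library total and for limma voom. The fit was checked on simulated data. The genes, lists, tests and alternatives were chosen with earlier results of these data known. Pathway genes named in the text are the 2 with the largest change among those called in each list and comparison, and genes of like pattern are the 2 with the highest Pearson r. siRNA sequences come from the study's supplementary tables. Alternatives were other pseudocounts, filters, scalings and samples, and a replicate block. Correlations of same-numbered libraries' deviations ran from -0.508 to 0.201, so no pairing by number was seen. With so few libraries a group, this check cannot exclude a shared batch.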

Additional observations from a re-analysis of the deposited data

How the results depend on the processing

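UHRF2 (8-cell against MII and against 4-cell) and DNMT1 (8-cell against MII) kept their direction and call in 18 of 18 alternatives, DNMT3B in 13 of 18 (8-cell) and 9 of 18 (4-cell), and TET2 in 7 of 18 (8-cell) and 3 of 18 (4-cell). The count of genes called in 4-cell embryos against MII, 2 as reported, was 1 with a pseudocount of 0.1 FPKM, 0 with no filter on low values, 0 with the replicate block, 1 by the thresholds of the study (unadjusted p and 2-fold, on limma's fit), and 0 to 2 when a replicate was left out. Under the other scalings TET2 was lost and the calls were all lower: 2 with median-ratio rescaling (DNMT3B and UHRF2), and 3 with quantile normalization, on shared fragments and with limma voom (DNMT3B, UHRF2 and DNMT1). In 8-cell embryos against MII, 4 as reported, it was 3 under each of the other scalings, 2 with no filter and 2 to 5 when a replicate was left out. Between 8-cell and 4-cell embryos, 1 as reported, it was 2 with quantile normalization. In the knockdown comparison, 0 as reported, it was 1 by those thresholds. Replicate numbers did not pair the samples, and the replicate block left 3 genes called in 8-cell embryos against MII and 1 between the embryo stages. Over all genes the replicate block called 25.7% (4-cell), 32.4% (8-cell), 3.42% (8-cell against 4-cell) and 4.19% (knockdown), beside 31.2%, 37.4%, 8.29% and 7.98%. The named pathway genes, which were run under the alternatives after the data had been seen, kept their sign under each of the scalings.

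Some differences that were not called turned their sign. TET3 in 4-cell embryos against MII was -0.22 with median-ratio rescaling, -0.19 with quantile normalization, -0.44 on shared fragments, -0.51 with limma voom and -0.16 to 0.25 without a replicate. TET3 in 8-cell embryos against MII was -0.18 with median-ratio rescaling and with quantile normalization, -0.31 on shared fragments, -0.37 with limma voom and -0.23 to 0.53 without a replicate. Between 8-cell and 4-cell embryos quantile normalization gave -0.068 for TET2 and -0.033 for TET1. Leaving out a replicate gave -0.42 to 0.070 for DNMT3A (4-cell against MII), -0.996 to 0.47 for UHRF1 (8-cell against MII), and, between 8-cell and 4-cell embryos, -0.076 to 0.32 for TET2, -0.42 to 0.27 for DNMT3B, -0.028 to 0.36 for TET1 and -0.27 to 0.49 for TET3. In the knockdown comparison it gave -0.13 to 0.88 for DNMT1, and where it left 1 library in a group, that library was assumed to vary like the others. The cause was not tested beyond what each setting changes. DNMT3B had the fewest fragments behind a value, 64 in 4-cell replicate 3, and the depth of the injected libraries is unknown.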
